A study of Homo sapiens with 9 samples.

Results

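The 9 genes described here belong to the FGF8 signalling network, are linked to Kallmann syndrome and were measured in human definitive endoderm that was wild type, heterozygous or homozygous for a deletion in CHD7, a chromatin remodeller gene. The set was a named list put together by function, with earlier results of these data known: the ligands FGF8 and FGF17, the receptor FGFR1, the heparan sulfate enzyme HS6ST1, the matrix protein gene ANOS1, the adhesion receptor FLRT3 and the feedback regulators DUSP6, IL17RD and SPRY4. All 9 of the 9 genes had a row among the 26240 of the count table, and all 9 passed the filter on low counts. The cells were derived from H9, an established human embryonic stem cell line, in which CHD7 had been deleted with CRISPR/Cas9. RNA was sequenced from 3 libraries of control wild-type (CHD7+/+) cells, 3 of heterozygous (CHD7+/-) and 3 of homozygous mutant (CHD7-/-) cells, each library differentiated to definitive endoderm. The labels give neither the deleted interval nor the number of clones or cultures behind each genotype, so p-values measure only how these libraries vary, and that variation may be technical.

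Kallmann syndrome combines absent or delayed puberty, from a lack of gonadotropin-releasing hormone, with a missing sense of smell, and it overlaps CHARGE syndrome, most cases of which carry a CHD7 mutation. Secreted FGF8 and its close relative FGF17 bind FGF receptors together with sulfated heparan sulfate chains and activate the RAS-ERK kinase cascade. The cascade induces its own brakes, and in vertebrate embryos these feedback genes are transcribed in the same places as FGF8, a pattern called synexpression. In the gastrulating embryo FGF signals are needed for cells to leave the primitive streak and form mesoderm and endoderm.

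The total count per library ranged from 11854173 in homozygous replicate 1 to 37519729 in wild-type replicate 1. CHD7 transcript followed the labelled genotype, with a mean of 193 ± 3.29 CPM (counts per 1000000 reads) for wild type, 123 ± 11.2 for CHD7+/- and 51.5 ± 7.41 for CHD7-/- (SD, n = 3 each). The 10 definitive endoderm markers SOX17, FOXA2, CXCR4, GATA4, GATA6, EOMES, CER1, GSC, HHEX and LHX1 had counts in every library. Their summed level was 10519 to 11330.2 CPM in wild-type, 8812 to 9877 CPM in heterozygous and 7109.8 to 8264 CPM in homozygous libraries. CER1, a secreted Nodal and BMP antagonist, made up most of that sum and of its change, at 7245 ± 399, 6124 ± 659.5 and 4629.9 ± 596 CPM. In homozygous against wild-type cells 3 of the 10 fell, CER1 (log2 fold change -0.65), FOXA2 (-0.55) and HHEX (-0.44), where 4.18% of all genes fell. The median of the 10 was -0.16. Markers of primitive streak and mesoderm summed to 989.9 to 1011, 748 to 839 and 632 to 742 CPM, with MESP1, MESP2 and HAND1 below 1 CPM in all libraries. MIXL1 made up most of that sum, at 942 ± 18, 766 ± 56 and 647 ± 62.2 CPM. In homozygous against wild-type cells 2 of the 5 tested fell, KDR and MIXL1, where 4.18% of all genes did. Markers of neuroectoderm and neural crest summed to 385 to 426, 342 to 404 and 334 to 382 CPM, and NES made up most of that sum. Against wild type 0 of the 4 tested were called in either mutant, where 7.68% of all genes were in homozygous and 1.86% in heterozygous cells. An unadjusted p below 0.05 was found for 1 in homozygous and 2 in heterozygous cells. Markers of trophoblast and amnion summed to 10.7 to 13.7, 14.2 to 14.3 and 23.7 to 32.1 CPM. TFAP2C made up most of that sum, at 9.71 ± 1.42, 12.1 ± 0.655 and 22.6 ± 3.78 CPM. GATA2, TFAP2A and KRT7 were below 1 CPM in all libraries. In homozygous against wild-type cells 2 of the 4 tested rose, GATA3 and TFAP2C, where 3.5% of all genes did. The mean log2 level of 7 tested pluripotency markers relative to wild type was 0.67, 0.60 and 0.15 in heterozygous and 0.06, 0.04 and -0.90 in homozygous replicates 1, 2 and 3. Against wild type edgeR called 0 of the 7 in either mutant, where it called 7.68% of all genes in homozygous and 1.86% in heterozygous cells. In heterozygous cells 5 had an unadjusted p below 0.05, LIN28A among them with a lower level (log2 fold change -0.23), and DESeq2 called 1. Of the 7 estimates there, 6 were above 0. In homozygous cells these counts were 3 and 0, with NANOG (-1.30) and LIN28A (-0.21) lower and DPPA4 (0.19) higher. Over all 16837 genes, 2274 and 3906 had such a p. The 8 pluripotency markers with a row summed to 2849 to 2969.5 CPM in wild-type, 2547 to 2894 in heterozygous and 2594 to 2716 in homozygous libraries. The POU5F1 level was 159 ± 39.4 CPM in heterozygous against 69.6 ± 22.3 CPM in wild-type libraries, with no overlap (adjusted p = 0.158). NANOG fell in homozygous against heterozygous cells (-1.65, adjusted p = 0.0401). The part of these marker shifts in the results below was not tested, and in bulk RNA fewer cells of a type and less RNA per cell cannot be told apart.

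FGF17 was by far the most abundant of the 9 transcripts. Scaled by merged exon length to TPM (transcripts per 1000000), a level that can be compared between genes, FGF17 stood at 2938 ± 73.3 TPM in wild-type cells (SD, n = 3), rank 30 of 25209 genes with a length. HS6ST1 followed at 308 ± 17.1 TPM, then SPRY4 at 139 ± 8.74, IL17RD at 118 ± 3.32 TPM and FGF8 at 104 ± 4.03 TPM. DUSP6 at 84.3 ± 5.94 TPM and FLRT3 at 73.6 ± 4.91 TPM overlapped between libraries, as did FGFR1 at 40.3 ± 1.77 and ANOS1 at 36.7 ± 1.96 TPM. In homozygous cells the upper 3 places were the same, FGFR1 (52.3 ± 3.54 TPM) and DUSP6 (51.2 ± 5.13 TPM) overlapped, as did FGF8 (98.0 ± 10.9 TPM) and IL17RD (86.2 ± 8.62 TPM). FLRT3 (30.4 ± 6.65 TPM) and ANOS1 (19.3 ± 4.50 TPM) were last. In heterozygous cells the order was that of wild type, from FGF17 at 2621 TPM to ANOS1 at 30.9 TPM, and the libraries of IL17RD overlapped with those of FGF8, DUSP6 with FLRT3, and FLRT3 with FGFR1. The lengths count all annotated exons of a gene, including those these cells may not use.

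In homozygous against wild-type cells 4 of the 9 genes fell (FLRT3, ANOS1, DUSP6 and IL17RD) and 1 rose (FGFR1), at an adjusted p below 0.05. Over all 16837 genes tested, 7.68% were called in this comparison, 3.5% higher and 4.18% lower. The libraries of the 2 genotypes did not overlap for 6 of the 9 genes, against 28.9% of all genes tested. The median log2 fold change was -0.11 over the 9 genes and 0.01 over all genes. Without wild-type replicate 2, 3 of the 9 were called, all lower, and against a 1.5-fold change 1 was called, FLRT3. In heterozygous against wild-type cells 0 of the 9 were called (edgeR), where 1.86% of all genes were, 0.82% higher and 1.04% lower. The libraries did not overlap for 5 of the 9, against 22.2% of all genes. In that comparison 4 of the 9 had an unadjusted p below 0.05, as did 2274 of all 16837 genes. DESeq2 called 1 gene, FLRT3, and limma-voom also called 1. Between homozygous and heterozygous cells 2 fell (FLRT3 and ANOS1) and 0 rose, where 2.21% of all genes were called, 0.986% higher and 1.22% lower. Here 5 of the 9 did not overlap, against 19.5% of all genes. The 2 comparisons with wild type share the wild-type libraries, and all 3 comparisons came from 1 fit.

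**Figure D1:**
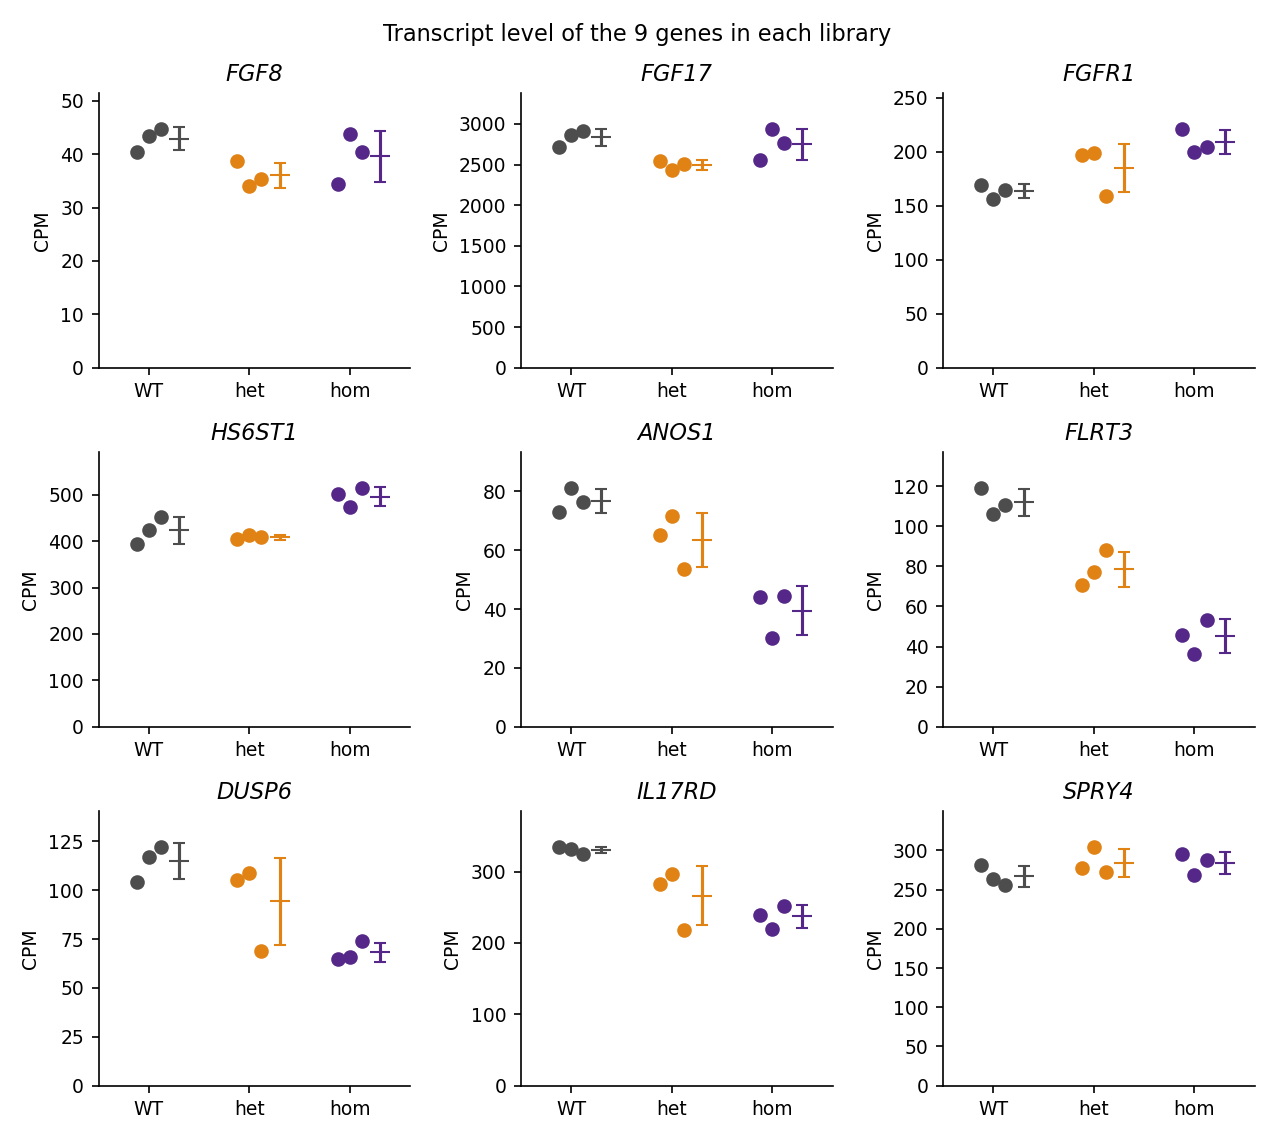
Level of each of the 9 genes in CPM (vertical axis from 0, a separate scale for each gene) in 3 wild-type (WT), 3 heterozygous (het) and 3 homozygous (hom) libraries. Points are libraries, and the dash with bars is the mean ± SD (n = 3). FLRT3 falls from 106 to 119 CPM in wild-type to 36.5 to 53.4 CPM in homozygous libraries, while FGF17 and SPRY4 overlap between these genotypes.

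FLRT3 changed most. It encodes a leucine-rich repeat membrane protein that binds FGF receptors and promotes FGF-ERK signalling, and also binds UNC5 and latrophilin receptors in cell adhesion and axon guidance. Its level was 119, 106 and 110.5 CPM in wild-type replicates 1, 2 and 3, 70.6, 77.1 and 88.1 CPM in the heterozygous and 45.7, 36.5 and 53.4 CPM in the homozygous replicates. The 3 genotypes formed 3 separate ranges, with heterozygous libraries between the other two. The log2 fold change of FLRT3 in homozygous against wild-type cells was -1.31 (adjusted p = 5.30e-05, SE 0.13), to 0.403 of the wild-type level, and against heterozygous cells -0.80 (adjusted p = 0.00592, SE 0.13). The heterozygous difference from wild type was -0.51 (SE 0.13, 95% interval -0.78 to -0.24, adjusted p = 0.0663) and did not pass edgeR's test. It passed in 7 of 19 alternatives, among them DESeq2 (adjusted p = 0.0146), limma-voom (0.0491) and fits without homozygous replicate 2 (0.0140) or 3 (0.0201). FLRT3 (ENSG00000125848) lies on chromosome 20 from 14322988 to 14337616 on the minus strand of GRCh38, within the span of MACROD2 on the other strand. MACROD2 had 219 counts over the 9 libraries against 19420 for FLRT3, and was not called in the homozygous comparison with wild type (-0.31, adjusted p = 0.705).

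ANOS1 fell next most. It encodes anosmin-1, a secreted matrix glycoprotein that binds heparan sulfate and FGFR1, and it was the first gene linked to X-linked Kallmann syndrome. The wild-type replicates stood at 73.1, 81.1 and 76.3 CPM, the heterozygous at 65.3, 71.8 and 53.7 CPM and the homozygous at 44.0, 30.0 and 44.4 CPM. All homozygous libraries were below all others, and the heterozygous libraries below the wild-type ones by a narrower margin. The log2 fold change in homozygous against wild-type cells was -0.97 (adjusted p = 0.00133, SE 0.15), 0.511 of the wild-type level, and the test against 1.5-fold did not call it (adjusted p = 0.114). Heterozygous against wild-type cells differed by -0.27 (95% interval -0.58 to 0.04, adjusted p = 0.440). ANOS1 also fell in homozygous against heterozygous cells (-0.70, adjusted p = 0.0289, SE 0.15). Leaving out wild-type replicate 2 (adjusted p = 0.0502) or 3 (0.0518), heterozygous replicate 1 (0.0630) or 2 (0.134), or homozygous replicate 2 (0.0513) ended this call, as did a fit of the 6 libraries alone (0.0761).

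The nearest tested protein-coding genes around ANOS1 (ENSG00000011201, chromosome X, 8528874 to 8732186, minus strand) are given beside it. PNPLA4, a lipase gene 601 kb away, went from 14.8 ± 0.933 CPM in wild-type to 1.13 ± 0.160 CPM in CHD7+/- and 1.24 ± 0.545 CPM in CHD7-/- cells (SD, n = 3). It fell in both mutants, with log2 fold changes of -3.70 (adjusted p = 2.14e-06) and -3.46 (adjusted p = 2.12e-06), and differed by 0.24 between the mutants (adjusted p = 0.664). STS, the steroid sulfatase gene on the same side, had -0.47 in homozygous against wild-type cells (adjusted p = 0.0943). On the other side TBL1X had -0.04 (adjusted p = 0.835) and GPR143 0.24 (adjusted p = 0.613).

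**Figure D2:**
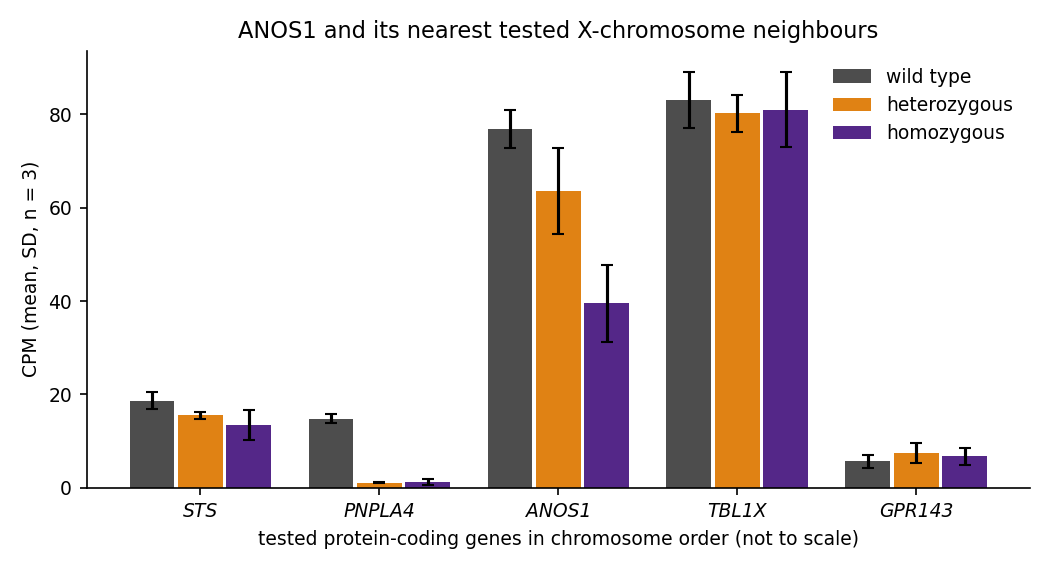
Mean level in CPM (vertical axis from 0) of ANOS1 and the 2 nearest tested protein-coding genes on each side of it on the X chromosome, in chromosome order but not to scale. Bars are means of 3 libraries per genotype with SD. PNPLA4 is near 1 CPM in both mutant genotypes, while ANOS1 is lowest in homozygous cells at 39.5 CPM.

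Of the 16 nearest tested protein-coding genes of FLRT3, FGFR1, IL17RD and DUSP6, 3 (18.8%) passed the test in homozygous against wild-type cells, where 7.68% of all genes did. Beside IL17RD, the guanine nucleotide exchange factor gene ARHGEF3 (10.7 kb away) rose by 0.47 on the log2 scale (adjusted p = 0.0132), a result lost without wild-type replicates 2 (0.0615) or 3 (0.0846). On its other side HESX1 fell and is described with the hypogonadism genes. The calcium pump gene ATP2B1, 235 kb from DUSP6, fell by 0.64 on the log2 scale (adjusted p = 0.00717). The 4 neighbours of FLRT3 (ESF1, NDUFAF5, KIF16B and SNRPB2) and the 4 of FGFR1 (DDHD2, NSD3, TACC1 and TM2D2) were not called.

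DUSP6 and IL17RD, both brakes on the pathway, were lower in homozygous cells, and SPRY4 was not called. DUSP6 (ENSG00000139318, chromosome 12, 89347232 to 89353271, minus strand) encodes a cytoplasmic phosphatase that inactivates ERK. Its level was 104, 117 and 122 CPM in wild-type, 105, 109 and 68.8 CPM in heterozygous and 65.0, 65.9 and 73.8 CPM in homozygous replicates. Heterozygous replicate 3 sat within the homozygous range and the other 2 heterozygous libraries within the wild-type range. The log2 fold change was -0.75 (adjusted p = 0.00691, SE 0.15) in homozygous against wild-type cells, -0.28 (adjusted p = 0.426, 95% interval -0.59 to 0.03) in heterozygous against wild-type cells and -0.47 (adjusted p = 0.122, SE 0.15) between the mutants. Without heterozygous replicate 3 the last of these was called (-0.64, adjusted p = 0.00467).

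IL17RD (ENSG00000144730, chromosome 3, 57089982 to 57170306, minus strand), also known as Sef, encodes a membrane protein that restrains signalling from FGF receptors to ERK. It stood at 334, 332 and 325 CPM in wild-type, 282, 297 and 218 CPM in heterozygous and 239.6, 219.8 and 252 CPM in homozygous replicates. Every mutant library was below every wild-type library, while heterozygous replicate 3 lay below all homozygous ones. In homozygous cells IL17RD fell to 0.718 of the wild-type level (log2 fold change -0.48, adjusted p = 0.0146, SE 0.11). With wild-type replicate 2 left out the call was lost (adjusted p = 0.0597). The heterozygous difference from wild type was -0.31 (95% interval -0.54 to -0.09, adjusted p = 0.193). SPRY4 (ENSG00000187678, chromosome 5, 142310427 to 142326455, minus strand) is an inhibitor of receptor tyrosine kinase signalling upstream of ERK. It stood at 282, 264 and 256 CPM in wild-type, 277, 304 and 272 CPM in heterozygous and 295, 268 and 288 CPM in homozygous replicates, with overlapping ranges. Its log2 fold change against wild type was 0.08 (95% interval -0.08 to 0.25, adjusted p = 0.548) in homozygous and 0.09 (-0.08 to 0.26, adjusted p = 0.700) in heterozygous cells. Across the 9 libraries DUSP6 and IL17RD varied together (Pearson r = 0.94 of log2 CPM), as a description over libraries that share 3 genotypes. Values nearly as high were found for ANOS1 with FLRT3 (0.91), DUSP6 (0.90) and IL17RD (0.87). SPRY4 did not follow DUSP6 (-0.25) or IL17RD (-0.16). FGF8 had 0.35 with IL17RD, 0.32 with DUSP6 and -0.78 with SPRY4.

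The promoters of 3 of the genes that fell in homozygous cells are shown. DUSP6 also fell, but its window held 0 bases upstream of the annotated exons of the gene. The runs are the bases before the RefSeq start site on GRCh38.p14, on the minus strand, 5′ to 3′, without bases that GENCODE 29 places in an exon of the gene. Capitals mark a match to the motifs searched.
FLRT3 (chr20:14337617-14337862): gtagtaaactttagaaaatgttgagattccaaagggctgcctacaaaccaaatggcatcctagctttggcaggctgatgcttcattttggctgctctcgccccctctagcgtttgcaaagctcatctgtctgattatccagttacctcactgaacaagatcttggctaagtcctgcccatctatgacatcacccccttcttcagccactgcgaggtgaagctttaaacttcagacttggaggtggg
ANOS1 (chrX:8732187-8732387): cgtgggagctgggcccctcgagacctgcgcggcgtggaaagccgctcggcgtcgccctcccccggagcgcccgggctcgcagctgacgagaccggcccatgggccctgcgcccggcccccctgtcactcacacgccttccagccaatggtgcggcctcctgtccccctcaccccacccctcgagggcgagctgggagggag
IL17RD (chr3:57170318-57170567): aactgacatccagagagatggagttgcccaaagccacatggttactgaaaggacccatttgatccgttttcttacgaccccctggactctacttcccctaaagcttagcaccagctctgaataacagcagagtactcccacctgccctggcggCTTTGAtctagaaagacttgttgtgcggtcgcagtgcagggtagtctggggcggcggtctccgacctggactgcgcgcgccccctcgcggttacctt
Exact matches on both strands were sought in the 250 bases before each start, for the core letters CCGGAA of ETS factors, TGTTTAC of forkhead factors such as FOXA2, CTTTGA of TCF and LEF factors, AGATAA of GATA factors and GTCTAG of SMAD proteins. Of the 9 genes, 6 had a promoter entry, in 7 windows, since IL17RD had 2 starts. The IL17RD window that is not printed (chr3:57165354-57165603) has its start in a GENCODE 29 transcript. ANOS1 held an ETS match starting 9 bases before its start, outside the run shown, and 14.5% of 35093 promoter windows held that motif. The IL17RD window printed, whose start is not in a GENCODE 29 transcript, held a TCF and LEF match 97 bases before the start, a motif in 11.2% of windows. The windows of FLRT3, DUSP6, SPRY4 and HS6ST1 and the other IL17RD window held 0 matches to the 5 motifs, which says only that these letters are not there. The FLRT3 window was the poorest in G and C among them, at 47.6%, against 73.2% in ANOS1 and a median of 58% over all windows.

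The 2 ligands were not called in any comparison. FGF8 (ENSG00000107831) lies on chromosome 10 from 101770130 to 101780369 on the minus strand, and FGF17 (ENSG00000158815) on the plus strand of chromosome 8, at 22042398 to 22048809. FGF8 stood at 40.5, 43.5 and 44.7 CPM in wild-type, 38.7, 34.1 and 35.3 CPM in heterozygous and 34.5, 43.9 and 40.5 CPM in homozygous replicates. FGF17 stood at 2722, 2864 and 2916 CPM, 2541, 2429 and 2511 CPM, and 2558, 2935 and 2760.3 CPM in the same order. For both, the heterozygous libraries lay below all wild-type libraries. Homozygous replicate 1 lay below the wild-type range for both genes, and homozygous replicate 2 lay above it for FGF17. The heterozygous log2 fold change from wild type was -0.25 for FGF8 (95% interval -0.47 to -0.03, adjusted p = 0.300) and -0.18 for FGF17 (-0.35 to -0.02, adjusted p = 0.311). The homozygous one was -0.11 for FGF8 (-0.33 to 0.11, adjusted p = 0.555) and -0.04 for FGF17 (-0.21 to 0.12, adjusted p = 0.778). For FGF17 the sign turned with upper quartile scaling (0.0023) and without homozygous replicate 1 (0.01). The levels of the 2 genes followed each other across the 9 libraries (Pearson r = 0.95 of log2 CPM). Of the summed TPM of the 19 FGF genes with a row, FGF17 made up 95.7% ± 0.0835 in wild-type cells (SD, n = 3). Its share was 95.6% ± 0.183 in heterozygous and 96.1% ± 0.105 in homozygous cells. The share of FGF8 was 3.39% ± 0.0524, 3.24% ± 0.143 and 3.23% ± 0.170 in the same order.

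FGFR1 (ENSG00000077782, chromosome 8, 38400215 to 38468834, minus strand) was the single gene of the set that rose. It encodes the receptor tyrosine kinase that FGF8 engages in the olfactory region, and its loss of function causes Kallmann syndrome. Wild-type replicates stood at 169.5, 156 and 165 CPM, heterozygous at 197, 199 and 159 CPM and homozygous at 221, 199.8 and 205 CPM. The homozygous libraries were above all others, and heterozygous replicate 3 lay among the wild-type libraries. The log2 fold change was 0.35 (adjusted p = 0.0382, SE 0.09) in homozygous against wild-type cells, 0.18 (adjusted p = 0.437, 95% interval -0.02 to 0.38) in heterozygous against wild-type cells and 0.17 (-0.03 to 0.37, adjusted p = 0.343) between the mutants. FGFR1 was no longer called when wild-type replicate 1 (adjusted p = 0.0751), 2 (0.167) or 3 (0.128) or homozygous replicate 1 (0.119) was left out.

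Of the 5 other receptors and co-receptors tested, 3 fell and 0 rose in homozygous against wild-type cells, where 4.18% of all genes fell, with a median log2 fold change of -0.48. In heterozygous cells 1 of the 5 fell, against 1.04% of all genes. FGFR2 fell from 56.0 ± 0.710 to 40.1 ± 1.13 CPM in homozygous cells (log2 fold change -0.48, adjusted p = 0.00446, SE 0.09), and FGFR3 from 43.6 ± 1.82 to 30.5 ± 3.75 CPM (-0.51, adjusted p = 0.00928, SE 0.10). FGFR3 was also lower in heterozygous cells, at 31.3 ± 2.48 CPM (-0.48, adjusted p = 0.0355, SE 0.10). FGFRL1, a receptor without a kinase domain, fell in homozygous cells as well (-0.47, adjusted p = 0.00904, SE 0.10), while FGFR4 was not called (0.19, adjusted p = 0.320, SE 0.11). FGFR1 made up 30.7% ± 0.691 of the summed TPM of the 4 kinase receptors in wild-type, 36.4% ± 0.762 in heterozygous and 39.1% ± 1.42 in homozygous cells (SD, n = 3). The ranges were 29.9 to 31.3%, 35.5 to 36.8% and 37.8 to 40.6%, and did not overlap. Such a share moves with all 4 genes and rests on merged exon length, 13.8 kb for FGFR1. In heterozygous cells FGFR1 itself overlapped wild type and was not called (log2 fold change 0.18, adjusted p = 0.437), while FGFR3 fell. The homozygous calls of FGFR3 (adjusted p = 0.0588) and FGFRL1 (0.0637) were lost without wild-type replicate 2. The heterozygous call of FGFR3 was lost without any of wild-type replicates 1 (0.0555), 2 (0.206) and 3 (0.156) or heterozygous replicates 1 (0.0966), 2 (0.107) and 3 (0.0857).

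**Figure D3:**
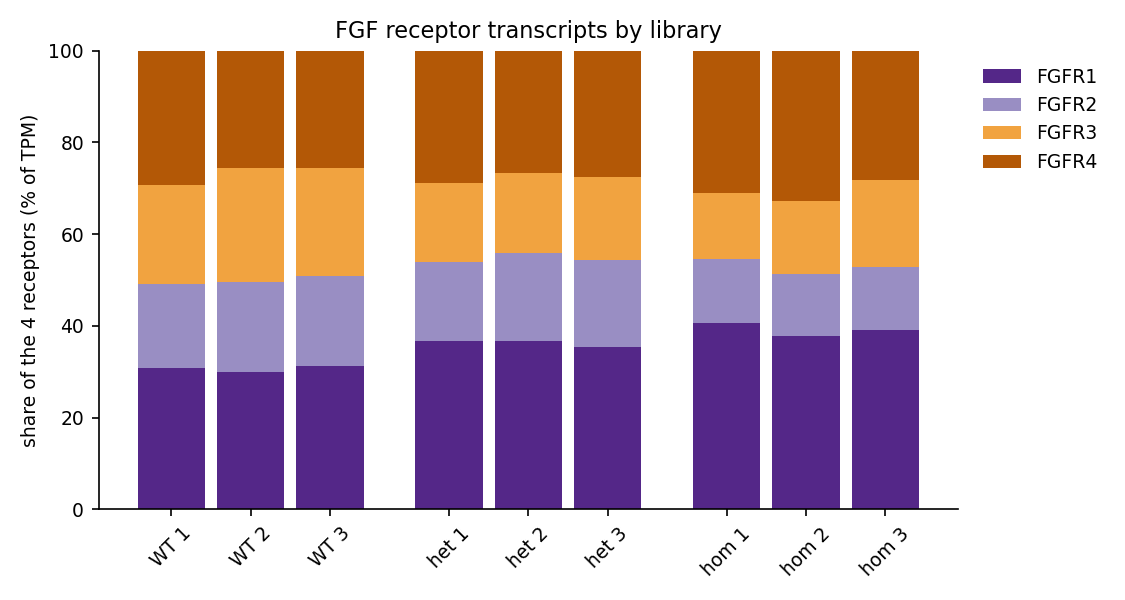
Share of the summed TPM of FGFR1, FGFR2, FGFR3 and FGFR4 in each of 9 libraries (vertical axis in percent, stacked bars). The FGFR1 share is 29.9 to 31.3% in wild-type (WT), 35.5 to 36.8% in heterozygous (het) and 37.8 to 40.6% in homozygous (hom) libraries.

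HS6ST1 (ENSG00000136720, chromosome 2, 128236716 to 128318577, minus strand) encodes a sulfotransferase that adds the 6-O-sulfate groups on heparan sulfate that FGF receptors need. It stood at 394, 425 and 452 CPM in wild-type, 404, 413 and 408 CPM in heterozygous and 501, 474 and 514 CPM in homozygous replicates. The homozygous libraries lay above all others. The log2 fold change was 0.23 (adjusted p = 0.0858, 95% interval 0.07 to 0.39) in homozygous against wild-type cells and 0.28 (0.12 to 0.44, adjusted p = 0.0760) against heterozygous cells, and neither passed edgeR's test. Upper quartile scaling gave an adjusted p of 0.0368 and 0.0464 for these, and DESeq2 called the second (0.0212). Heterozygous against wild-type cells differed by -0.05 (-0.22 to 0.11, adjusted p = 0.830).

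**Figure D4:**
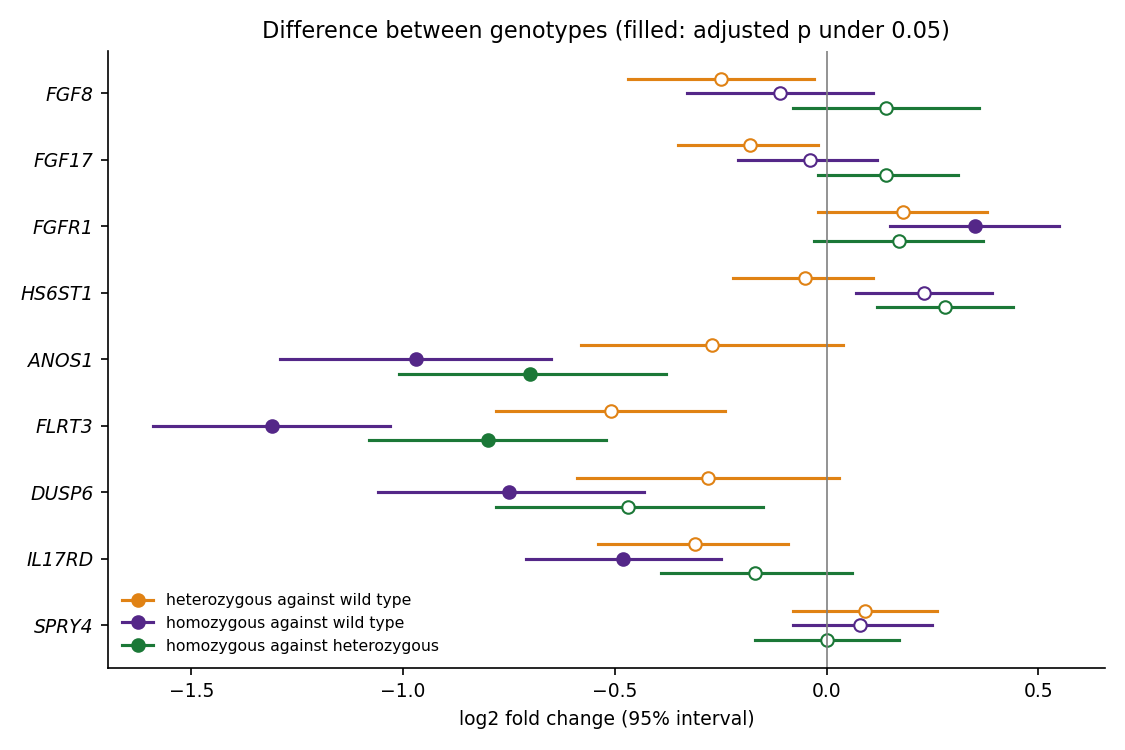
Log2 fold change (horizontal axis) of the 9 genes in the 3 comparisons, with 95% intervals from edgeR's quasi-likelihood fit. Filled points have an adjusted p below 0.05: FLRT3, ANOS1, DUSP6, IL17RD and FGFR1 in homozygous against wild type, and FLRT3 and ANOS1 in homozygous against heterozygous.

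The remaining genes of the pathway were counted in lists written with earlier results of these data known. Among 12 tested of 13 other feedback regulators and ETS targets, 3 (25%) fell in homozygous against wild-type cells and 0 rose, where 4.18% of all genes fell. Their median log2 fold change was -0.21 against 0.01 over all genes. The 3 were the Sprouty gene SPRY2 (-0.56, adjusted p = 0.00299, SE 0.10), the ETS factor gene ETV1 (-0.51, adjusted p = 0.0136, SE 0.11) and SPRED2 (-0.32, adjusted p = 0.0285, SE 0.08), which encodes another ERK pathway inhibitor. ETV4 (-0.16, adjusted p = 0.332) and ETV5 (-0.05, adjusted p = 0.785), the ETS genes most often used as FGF readouts, were not called. In heterozygous against wild-type cells 1 of the 12 (8.33%) fell, where 1.04% of all genes did. It was the nuclear ERK phosphatase gene DUSP4, from 459 ± 33.4 to 314 ± 12.1 CPM (-0.55, adjusted p = 0.0362, SE 0.12). DUSP4 in homozygous cells stood at 345 ± 68.2 CPM (-0.41, adjusted p = 0.0542). The ETV1 call was lost without any 1 of the wild-type libraries (highest adjusted p = 0.0520), and that of SPRED2 also without homozygous replicate 2 (highest 0.118). DUSP4 was no longer called without wild-type replicates 2 or 3, any heterozygous library or homozygous replicate 1 (highest 0.199).

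Of 8 tested relatives and binding partners of FLRT3, 4 fell and 0 rose in homozygous against wild-type cells, where 4.18% of all genes fell. The median log2 fold change of the 8 was -0.49, with 5 estimates below 0 and 3 above. The paralog FLRT2 went from 30.7 ± 2.11 to 14.4 ± 3.82 CPM (-1.10, adjusted p = 0.00252, SE 0.18). The netrin receptor UNC5C went from 18.5 ± 1.56 to 6.57 ± 1.49 CPM (-1.46, adjusted p = 0.000162, SE 0.17) and was also lower than in heterozygous cells (-1.06, adjusted p = 0.00576, SE 0.17). The latrophilins ADGRL3 (-1.59, adjusted p = 0.000613, SE 0.22) and ADGRL2 (-0.59, adjusted p = 0.00686, SE 0.12) were the other two. ADGRL3 was the 1 of the 8 called in heterozygous against wild-type cells, where 1.86% of all genes were (-1.13, adjusted p = 0.0148, SE 0.21), and it was no longer called without wild-type replicates 2 (0.0837) or 3 (0.0952) or heterozygous replicates 1 (0.0659) or 2 (0.0859).

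Of the other FGF genes, secreted and intracellular, 11 of 20 were tested. Of these, 3 (27.3%) fell and 0 rose in homozygous against wild-type cells, where 4.18% of all genes fell. FGF20 went from 2.09 ± 0.314 to 0.609 ± 0.343 CPM (-1.64, adjusted p = 0.00904, SE 0.33). FGF13, an intracellular FGF that does not act through FGF receptors, went from 80.1 ± 5.58 to 61.4 ± 6.88 CPM (-0.39, adjusted p = 0.0277, SE 0.10), and was also lower than in heterozygous cells (-0.51, adjusted p = 0.0166, SE 0.10). FGF10 was at low levels in both genotypes, at 0.523 ± 0.174 and 0.105 ± 0.0853 CPM (adjusted p = 0.0499). The call of FGF10 was lost in 10 of 15 alternatives that tested it, 5 of which left out wild-type replicate 3, heterozygous replicate 1 or 2, or homozygous replicate 1 or 2 (highest adjusted p = 0.243). Leaving out single libraries ended the FGF13 call against wild type in 5 cases (highest adjusted p = 0.108). These were any wild-type library, heterozygous replicate 2 and homozygous replicate 2. The call against heterozygous cells was lost in 2 cases (0.0549 and 0.0748, without heterozygous replicates 1 and 2). In heterozygous against wild-type cells edgeR called 0 of the 11, where it called 1.86% of all genes, and DESeq2 called 1. There 6 of the 11 estimates were above 0 and 5 below. An unadjusted p below 0.05 was found for 6 of the 11, and for 2274 of all 16837 genes.

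Of 29 tested heparan sulfate genes other than HS6ST1, 1 rose and 1 fell in homozygous against wild-type cells. That is 6.9%, close to the 7.68% called over all genes. The glypican gene GPC2 rose from 37.8 ± 1.77 to 55.5 ± 6.53 CPM (0.55, adjusted p = 0.0101, SE 0.11) and GPC6 fell from 105 ± 6.78 to 58.7 ± 11.0 CPM (-0.84, adjusted p = 0.00160, SE 0.13). Among the 19 genes that relay the signal from receptor to ERK, 1 fell, the ERK gene MAPK3 (-0.45, adjusted p = 0.0216, SE 0.11). That is 5.26% called, against the same 7.68%. The MAPK3 call was lost without wild-type replicates 1 (0.0765), 2 (0.0629) or 3 (0.0642) or homozygous replicate 1 (0.0654). In heterozygous cells 0 of the 29 and 0 of the 19 were called against wild type by edgeR or DESeq2, where edgeR called 1.86% of all genes. An unadjusted p below 0.05 was found for 6 and 1 of them, and for 2274 of all 16837 genes.

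Of the other genes linked to hypogonadotropic hypogonadism, 30 of 39 were tested, and 4 (13.3%) fell and 0 rose in homozygous against wild-type cells, where 4.18% of all genes fell. Their median log2 fold change was -0.14. FEZF1, a zinc-finger gene of olfactory development, had 128 counts over the 3 wild-type libraries and 0 over the homozygous ones. That is at least 28.1-fold lower with the floor at 3 counts over the genotype. It was also lower in heterozygous cells, at 0.111 ± 0.134 against 1.38 ± 0.159 CPM (adjusted p = 0.0132), and was no longer called without wild-type replicate 3 (0.0579) or heterozygous replicate 2 (0.105). HESX1, a pituitary and forebrain homeobox gene, went from 4.36 ± 1.02 to 1.71 ± 0.123 CPM (-1.37, adjusted p = 0.0156, SE 0.30). It is also the nearest tested gene on one side of IL17RD, 27.5 kb away on chromosome 3, and its call was lost without wild-type replicate 1 (0.0606) or homozygous replicate 2 (0.0568). SEMA3A, a repellent semaphorin that guides olfactory axons, fell against both wild-type (-0.55, adjusted p = 0.00756, SE 0.11) and heterozygous cells (-0.64, adjusted p = 0.00830, SE 0.11). The netrin gene NTN1 fell as well (-0.41, adjusted p = 0.0218, SE 0.10), a call lost without any of the wild-type replicates (0.0691, 0.0770 and 0.0769) or homozygous replicates 1 (0.0821) or 2 (0.0576). In heterozygous cells FEZF1 was the 1 called gene of these 30 (3.33%), against 1.86% of all genes.

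**Figure D5:**
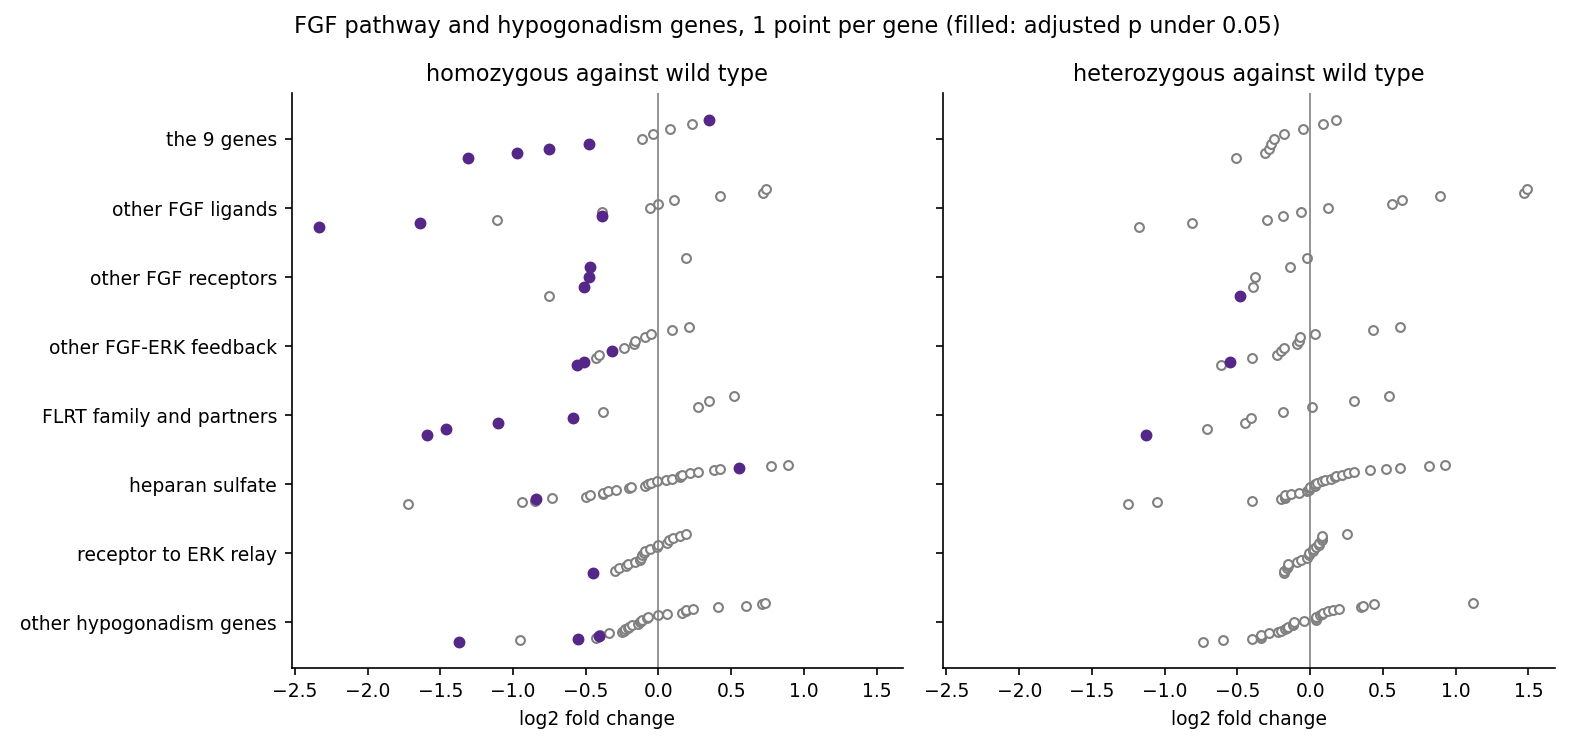
Log2 fold change (horizontal axis) in homozygous (left) and heterozygous (right) against wild-type cells for the 9 genes and 7 lists of related genes, 1 point per tested gene. Filled points have an adjusted p below 0.05. FEZF1 (0 counts in homozygous cells) is drawn in neither panel, though it was called in both comparisons. Its heterozygous log2 fold change was -3.48 (adjusted p = 0.0132). In the left panel 4 of the 9 genes lie filled to the left of 0 and 1 to the right.

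The genes whose log2 CPM followed each called gene most closely over the 9 libraries were taken from 10827 genes with a mean of at least 5 CPM. For FLRT3 they were the phosphatase gene PTPN13 (Pearson r = 0.992), PHACTR2 (0.990) and the semaphorin SEMA3D (0.989). PTPN13 went from 352 ± 4.69 CPM in wild-type to 217 ± 36.1 in heterozygous and 116 ± 26.7 CPM in homozygous cells. For ANOS1 they included SH3D19 (0.975) and the long noncoding RNA MALAT1 (0.974). DUSP6 was closest to NMT1 (0.981), the integrin gene ITGB8 (0.979) and the collagen gene COL1A2 (0.967), and IL17RD to the metalloproteinase gene MMP24 (0.984), HNRNPL (0.974) and PGK1 (0.970). FGFR1 was closest to DHRS2 (0.975), ESPL1 (0.971) and SEMA5B (0.969). These values are the highest of many and describe 9 libraries that share 3 genotypes, so they carry no test.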

How the data were processed

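Libraries were made from total RNA and run on an Illumina NovaSeq, per the labels' protocols. Values in the deposited table are unnormalized read counts for each gene, 1 column per library. Per the submitters' processing notes, FastQC, Trimmomatic, HISAT2, SAMtools and HTSeq were used with the build hg38. The sources used here give no versions, annotation release or strand setting, and reads of overlapping genes on opposite strands cannot be told apart. Symbols were found for 26177 rows and GENCODE 29 coordinates on GRCh38 for 25209.

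In R 4.3.3 with edgeR 4.0.16, filterByExpr kept 16837 genes, TMM scaling factors were 0.973 to 1.01, and 1 quasi-likelihood fit of all 9 libraries with genotype as the only factor gave two-sided tests. Genes were called at a Benjamini-Hochberg adjusted p below 0.05, adjusted over all genes tested. The SE is the fold change divided by the square root of F. TPM was computed here from the counts and merged exon length. Chi-square values of replicate pairs lay between 2.55 and 30.6 per degree of freedom, so no pair was treated as 1 library. Floors of 3 counts cover counting error only.

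The 9 genes and all lists were chosen with earlier results of these data known. The text names the 9 genes, CHD7, up to 6 called genes of each list, neighbours of called genes, and the 3 genes most like each called gene, of which 1 is not reported here. ETV4, ETV5, FGFR4 and DUSP4 in homozygous cells, and LIN28A, DPPA4 and NANOG against wild type, were added after their values were seen. Alternatives were other scalings and filters, DESeq2 1.42.0, limma-voom (limma 3.58.1), a 6-library fit, a replicate block, a test against a 1.5-fold change, thinning to the shallowest library, and leaving out each library.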

Additional observations from a re-analysis of the deposited data

How the results depend on the processing

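FLRT3 in homozygous against wild-type cells was called in all 19 alternatives (log2 fold change -1.45 to -1.17). ANOS1 and DUSP6 were called in 18 of 19 there, IL17RD in 17 and FGFR1 in 14. Replicate numbers are shared between genotypes in the labels. Deviations of same-numbered libraries from their genotype means had correlations from -0.451 to 0.473. Some libraries correlated best with their own number and others did not. Such deviations from means of 3 libraries cannot tell whether a shared number stands for a shared batch. With the replicate block, 5, 1 and 2 of the 9 genes were called for homozygous and heterozygous cells against wild type and for homozygous against heterozygous cells, and 1503, 492 and 461 of all genes, against 1293, 313 and 372 without it. In that order, the test against a 1.5-fold change called 281, 89 and 67 genes, and 1, 0 and 0 of the 9. DESeq2 called 560 and 819 genes in the latter 2 comparisons, with 1 and 4 of the 9. The fit of 6 libraries called 604 and 177 there, with 1 of the 9 in each. In heterozygous against wild-type cells limma-voom and no filter on low counts called 1 of the 9. Leaving out single libraries gave 651 to 2118, 130 to 624 and 141 to 377 genes called, and 3 to 5, 0 to 1 and 1 to 3 of the 9. The fewest genes were called without wild-type replicate 2, wild-type replicate 3 and heterozygous replicate 2 in turn, and the most without homozygous replicate 3 in each comparison. The 3 of the 9 were found without wild-type replicate 2. The sign of FGF17 in homozygous against wild-type cells turned with upper quartile scaling (0.0023) and without homozygous replicate 1 (0.01), with -0.09 to 0.01 over single libraries left out. SPRY4 between the mutants turned to 0.01 with 1 CPM in 3 libraries and with thinning, 0.0037 with 6 libraries, 0.0002 with relative log expression factors, 0.02 with upper quartile scaling and 0.04 without heterozygous replicate 2 or homozygous replicate 2, with -0.03 to 0.04 over single libraries left out. The cause was not tested. The 9 genes had 413 to 101476 counts per library.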
